A study of Mus musculus with 51 samples.

Results

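The lipoxygenase genes of epithelia, Alox12, Alox12b, Alox12e, Aloxe3, Alox8 and Alox15, were followed through sorted epithelial cells of the mouse oesophagus and of neighbouring tissues. They were the 6 rows of the deposited count table that carry these symbols, of 52636 genes in all. All 6 lie on chromosome 11 of the mouse genome (build GRCm38, GENCODE release M21) are annotated as protein-coding, and overlap no other annotated gene. Aloxe3 (ENSMUSG00000020892, chr11:69125896-69149115, plus strand), Alox12b (ENSMUSG00000032807, chr11:69156989-69169792, plus strand) and Alox8 (ENSMUSG00000020891, chr11:69183932-69197843, minus strand) stand side by side. Alox12 (ENSMUSG00000000320, chr11:70241457-70255353), Alox12e (ENSMUSG00000018907, chr11:70315610-70322628) and Alox15 (ENSMUSG00000018924, chr11:70344152-70352031) form a second group, all on the minus strand.

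Lipoxygenases add molecular oxygen to polyunsaturated fatty acids and give fatty acid hydroperoxides. In stratified epithelia Alox12b, the 12R-lipoxygenase, oxidises the linoleate of acylceramides, and Aloxe3, which works mainly as a hydroperoxide isomerase, converts the product further. The pair is needed for the lipid envelope of cornified cells, and loss of either gene in people causes ichthyosis. Alox12 is the platelet-type 12S-lipoxygenase, which is also made by keratinocytes. Alox12e is the epidermal-type 12S-lipoxygenase of the mouse. Alox8 is the mouse 8S-lipoxygenase of stimulated skin, and Alox15 is the leukocyte-type 12/15-lipoxygenase known from macrophages, eosinophils and some epithelia.

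Total RNA of 51 libraries in 14 groups was sequenced. SmoM2 is a constitutively active form of Smoothened, the Hedgehog signal transducer. In the name Krt5-SmoM2 it is joined to Krt5, a keratin gene of basal squamous cells. How Krt5 is linked to SmoM2 is not described here. Krt8YFP is a YFP reporter of Krt8, a keratin of simple epithelia. The groups were WT (n = 6, wild-type CD1 mice, EpCAM-low gate), SmoM2 (n = 6, Krt5-SmoM2 on CD1, EpCAM-high gate), K8YFP+ and K8YFP- (n = 3 each, Krt5-SmoM2-Krt8YFP on a mixed background, EpCAM-high cells with and without YFP) and Sox9cKO (n = 4, Krt5-SmoM2 with Sox9fl/fl, EpCAM-high gate). Krt5-SmoM2 mice also gave a time series, 3w and 7w, each with an EpCAM-high and an EpCAM-low sort (n = 4 per sort and time); the start of the weeks is not labelled. The groups without SmoM2, other than WT, were from Krt8YFP mice. They were embryonic oesophagus labelled E13.5 (Embryo, n = 2, sorted for EpCAM with YFP), Gut and Stomach (sorted for YFP, n = 2 per tissue), Junction columnar (n = 4, EpCAM-high with YFP) and Junction squamous (n = 3, EpCAM-high without YFP), the last 2 from the border of squamous and columnar epithelium. Embryo and Junction columnar were of mixed background. Genotype and gate change together between SmoM2 and WT. The labels tie no replicate to an animal, so the p-values measure the spread between libraries.

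The bases before the start sites are shown for 3 of the genes that the results turn on. They come from the RefSeq promoter table (GRCm38.p6), which held 4 of the 6 genes, and run from 250 bases before the RefSeq start to that start or, where it comes first, to the start of the GENCODE gene, 5′ to 3′ on the gene's strand. Capitals mark matches to GGGCGG on either strand, a box bound by SP and KLF factors.
Alox12e, chr11:70322629-70322780, minus strand: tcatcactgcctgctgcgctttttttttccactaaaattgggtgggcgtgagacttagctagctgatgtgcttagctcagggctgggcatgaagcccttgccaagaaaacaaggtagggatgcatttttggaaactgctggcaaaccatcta
Alox12b, chr11:69156822-69156988, plus strand: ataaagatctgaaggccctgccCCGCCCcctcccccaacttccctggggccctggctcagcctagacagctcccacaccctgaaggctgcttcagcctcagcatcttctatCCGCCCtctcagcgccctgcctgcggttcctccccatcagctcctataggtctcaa
Alox12, chr11:70255371-70255620, minus strand: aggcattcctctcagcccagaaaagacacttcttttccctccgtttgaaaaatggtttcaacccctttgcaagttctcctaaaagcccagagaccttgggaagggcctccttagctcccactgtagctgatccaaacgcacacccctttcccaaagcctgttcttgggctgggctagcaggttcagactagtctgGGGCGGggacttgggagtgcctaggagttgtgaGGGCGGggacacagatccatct
The box occurs 2 times in each of the Alox12 and Alox12b windows and not in that of Alox12e. Among 32851 promoter windows cut to the same length it was held by 32.7% (250 bases, as for Alox12), 19.0% (167 bases, as for Alox12b) and 17.0% (152 bases, as for Alox12e). The letters TGGGTGGTC, the consensus bound by the GLI factors of the Hedgehog pathway, were in none of the 3 windows and in 0.155% of all windows of 152 bases. TGANTCA (AP-1), AACCNGTT (Grainyhead-like factors) and TATAAA were in none of the 3 windows either. These counts describe exact matches to the letters in short windows, and near matches were not sought.

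Library totals ran from 1.61 M to 12.26 M counts, and the shallowest library was of K8YFP+. WT replicates 3 and 5, and 4 and 6, differed far less (chi-square per degree of freedom 1.83 and 2.31) than the 13 other WT pairs (9.94 to 31.5), so each pair may be repeat libraries of 1 sample. All 6 were used, and results with each pair summed are given where they change a call. Gli1, a direct target of Hedgehog signalling, checked the SmoM2 label: its mean was 0.703 ± 0.277 CPM (SD, n = 6) in WT and 220 ± 34.9 CPM (SD, n = 6) in SmoM2. Sox9 did not separate the libraries labelled Sox9cKO from SmoM2. Its levels in the former were 51.7, 45.7, 127 and 45.8 CPM (replicates 1 to 4) and in SmoM2 from 72.7 to 194 CPM, and its log2 fold was -0.62 ± 0.36 (SE, edgeR adjusted p = 0.361). CPM scale each count to the total of its library. Counts over the whole Sox9 gene need not show the loss of its floxed exons.

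**Figure D1:**
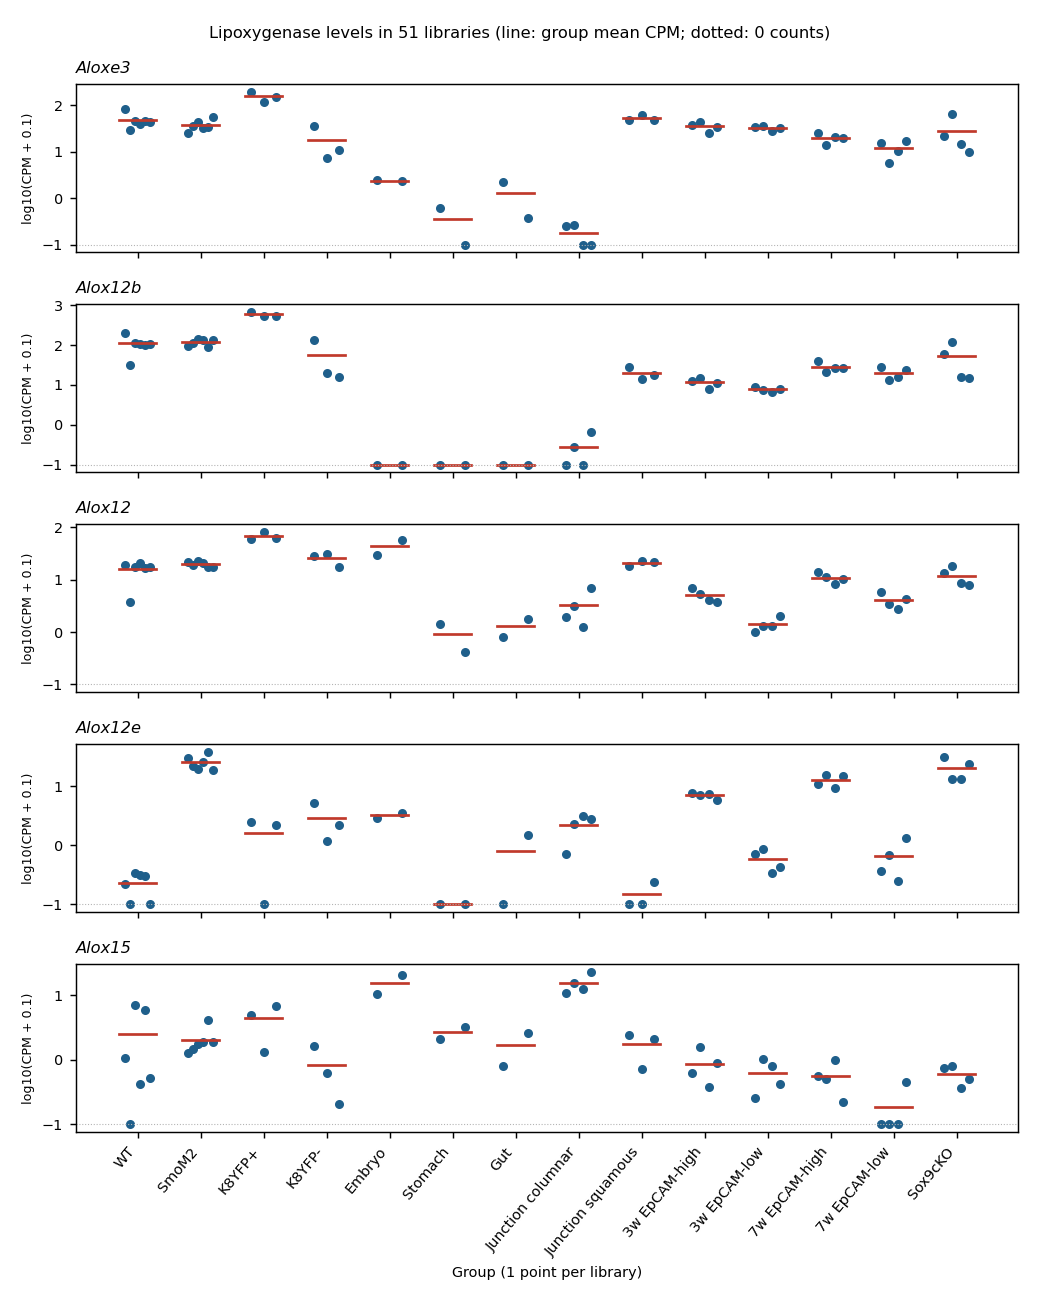
Levels of 5 lipoxygenases in all 51 libraries, as log10(CPM + 0.1), with groups on the horizontal axis; each point is a library, the red line is the group mean and the dotted line marks 0 counts. K8YFP+ is highest for Aloxe3, Alox12b and Alox12, SmoM2 and Sox9cKO for Alox12e, and Embryo and Junction columnar for Alox15.

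The barrier pair was counted mainly in squamous and SmoM2 groups and was low or at 0 in Embryo, Stomach, Gut and Junction columnar. In the K8YFP+ cells of SmoM2 oesophagus Alox12b reached 688, 549 and 532 CPM. The next groups in the order of means were SmoM2 (118 ± 22.5 CPM, SD, n = 6) and WT (109 ± 52.8 CPM, SD, n = 6), whose ranges overlapped with each other and not with K8YFP+. Lower means followed in K8YFP- (55.4 CPM), Sox9cKO (53.0), 7w EpCAM-high (28.0), 7w EpCAM-low (20.2), Junction squamous (19.6), 3w EpCAM-high (11.5) and 3w EpCAM-low (7.60), each overlapping in range with its neighbours. Alox12b had 4 counts over the 4 Junction columnar libraries and none in Embryo, Stomach or Gut. Those 0 counts allow up to 0.138 CPM in Embryo (3 counts over the group total, counting error only).

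Aloxe3 followed Alox12b in its highest and lowest groups and not in the order between them. Its levels in K8YFP+ were 194, 117 and 149 CPM. Means of 52.0 CPM in Junction squamous, 47.4 in WT, 37.4 in SmoM2, 34.9 in 3w EpCAM-high, 32.0 in 3w EpCAM-low, 27.4 in Sox9cKO, 19.7 in 7w EpCAM-high, 17.9 in K8YFP- and 12.0 in 7w EpCAM-low came next, with each range overlapping the next. Embryo held 2.25 ± 0.0773 CPM (SD, n = 2), below all 7w EpCAM-low libraries, and Junction columnar had 2 counts in 4 libraries. Over the 14 group means of log2(CPM + 1) Alox12b and Aloxe3 had Pearson r 0.90 and Spearman rho 0.72, as a description of groups that differ in gate, genotype and depth.

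Per kilobase of exon, Alox12b was the most abundant of the 6 genes in WT, where it made up 77.2% ± 4.11 (SD, n = 6) of their summed CPM per kb, against 14.3% ± 5.09 for Aloxe3. In K8YFP+ the Alox12b share was 84.9% ± 0.93 (SD, n = 3). In the 3w EpCAM-low cells Aloxe3 instead held the larger share, 56.5% ± 1.83 (SD, n = 4), with 35.4% ± 3.21 for Alox12b. The same order held in 3w EpCAM-high, with 38.4% ± 1.66 for Aloxe3 and 32.9% ± 2.97 for Alox12b (SD, n = 4). In Junction squamous the shares were close, 37.3% ± 7.8 and 36.1% ± 9.99 (SD, n = 3). Alox12 led in Embryo (57.6% ± 0.795, SD, n = 2) and Alox15 in Junction columnar (79.7% ± 3.49, SD, n = 4). Alox15 led also in Stomach (78.5% ± 22.4, SD, n = 2) and Gut (44.1% ± 11.0, SD, n = 2), on 25 and 11 counts. The summed level itself ranged from 286 ± 39.3 CPM per kb in K8YFP+ to 1.32 ± 0.0529 in Stomach.

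**Figure D2:**
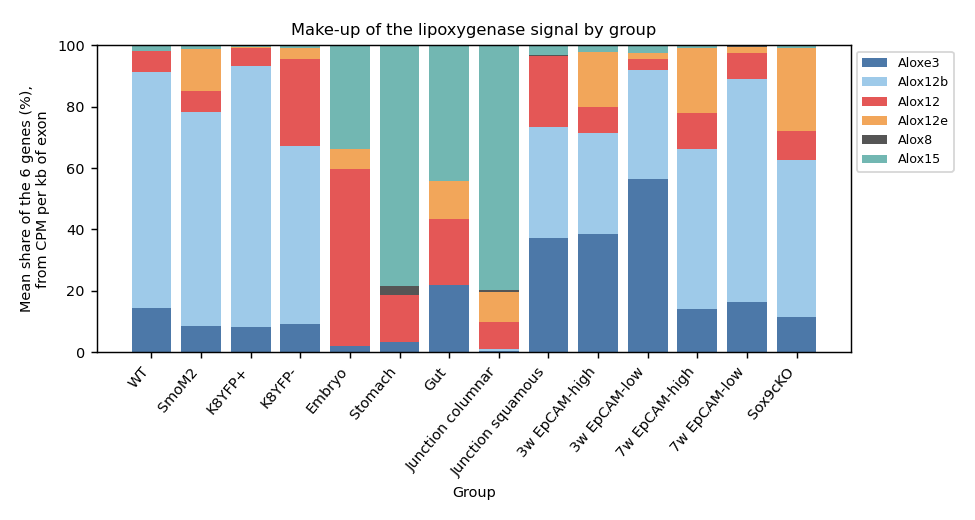
Mean share of each gene in the summed level of the 6 genes (percent, from CPM per kb of exon), for the 14 groups. Alox12b fills 77.2% of the bar in WT and 84.9% in K8YFP+, Aloxe3 56.5% in 3w EpCAM-low, Alox12 57.6% in Embryo and Alox15 79.7% in Junction columnar.

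Alox12, the platelet-type enzyme, was also highest in K8YFP+ (60.1, 82.2 and 63.4 CPM). Embryo, where Alox12b had no count, followed with 29.9 and 57.0 CPM. K8YFP-, Junction squamous, SmoM2 and WT had means of 25.6, 20.6, 19.6 and 15.6 CPM with overlapping ranges, and Sox9cKO and 7w EpCAM-high had 11.9 and 10.8 CPM. The remaining groups had means of at most 4.95 CPM. Of the platelet markers, Pf4 and Ppbp were at 0 in K8YFP+, and Pf4 was at 0 in SmoM2 and Embryo. Ppbp was at 0.923 and 0.825 CPM in Embryo and at up to 0.497 CPM in SmoM2. The platelet gene Itga2b was counted in all of these: 3.28 to 4.98 CPM in K8YFP+, 5.79 to 7.35 in SmoM2 and 6.19 and 10.9 in Embryo. In WT it was 6.34 to 11.8 CPM. The platelet list summed to 19.1 to 36.4 CPM in SmoM2, 15.5 to 21.1 CPM in Embryo and 14.7 to 32.4 CPM in WT. The summed platelet list was 49.2 to 66.6 CPM in K8YFP+ against a median of 23.8 CPM in K8YFP-, and 1 of its 3 tested members, Gp1bb, passed the test between them (log2 fold 2.18 ± 0.22, SE, adjusted p = 0.00246).

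Alox12e was highest in SmoM2 and Sox9cKO and near 0 in WT. Its levels in SmoM2 replicates 1 to 6 were 30.0, 21.8, 19.8, 25.8, 38.4 and 18.5 CPM, and in WT 0.122, 0, 0.236, 0.214, 0.203 and 0 CPM. Sox9cKO (30.7, 13.0, 13.2 and 23.6 CPM) overlapped SmoM2. Then came 7w EpCAM-high (9.25 to 15.6 CPM) and 3w EpCAM-high (5.78 to 7.70 CPM), which overlapped neither each other nor any group below. Embryo, K8YFP-, Junction columnar and K8YFP+ had means of 3.13, 2.77, 2.14 and 1.49 CPM, and the EpCAM-low SmoM2 groups 0.559 (7w) and 0.483 CPM (3w). The 2 YFP-sorted SmoM2 groups, which share the EpCAM-high gate with SmoM2, were thus far below it, and background strain and the leading number of the raw library names differ between them too. Their part in this cannot be told apart from the group.

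Alox15 was highest in Embryo (10.2 and 20.5 CPM) and in Junction columnar (10.6, 15.1, 12.4 and 23.1 CPM), which overlapped each other and no other group. Embryo had the higher mean by CPM and Junction columnar by TMM-scaled levels. In WT the libraries differed: replicates 3 and 5 had 6.95 and 5.77 CPM, and the other 4 libraries 0 to 0.974 CPM. Those 2 libraries form one of the pairs that may be repeats, so the high level may rest on 1 sample. Their summed myeloid markers, 17.8 and 14.8 CPM, were within the 14.9 to 39.2 CPM of the other WT libraries, or just below. Alox8 was counted at most 5 times in any group. It was at 0 in K8YFP+, K8YFP-, Gut, 3w EpCAM-low and 7w EpCAM-high, and passed the low-count filter of no comparison.

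Genes were then tested by edgeR's quasi-likelihood test on counts, two-sided, and called where p, adjusted by Benjamini-Hochberg across every gene of the fit, was under 0.05. Log2 folds are given ± SE. The share of all tested genes that passed is the background for each count of lipoxygenases.

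Between SmoM2 and WT oesophagus 1 of the 5 lipoxygenases tested passed, beside 49.5% of all genes. Alox12e rose by a log2 fold of 7.37 ± 0.36 (adjusted p = 6.63e-10), from 7 counts over 6 WT libraries to 1605 over 6 SmoM2 libraries, with no overlap. Alox12 (0.20 ± 0.26, adjusted p = 0.547) and Alox12b (-0.02 ± 0.28, adjusted p = 0.966) did not pass. Aloxe3 was -0.48 ± 0.23 (adjusted p = 0.0917), and passed without WT replicate 2 (-0.59, adjusted p = 0.0335), without SmoM2 replicate 6 (-0.61, adjusted p = 0.0365) or with no filter on low counts (-0.54, adjusted p = 0.0362). Alox15 was -0.44 ± 0.72 (adjusted p = 0.639), and its sign turned without WT replicate 3 (0.19) or 5 (0.02).

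The rest of the pathway was described through lists of genes. Of 23 barrier lipid genes tested, which supply and process the acylceramide substrate, 2 rose and 8 fell between SmoM2 and WT (median log2 fold -0.26, against 0.01 over all genes). Degs2, a sphingolipid hydroxylase, rose by 4.59 ± 0.34 (adjusted p = 5.1e-08), while Abca12, the lipid transporter of lamellar granules, fell by 1.28 ± 0.19 on the log2 scale (adjusted p = 6.87e-05). Among 12 genes for arachidonate release, 4 rose and 3 fell. Of 16 genes tested from the other eicosanoid branches 4 rose and 5 fell, the cyclooxygenase Ptgs2 rising by 2.68 ± 0.20 and the prostaglandin D synthase Hpgds by 3.95 ± 0.27 (adjusted p = 6.5e-08 and 2.49e-08). Of 11 receptor genes tested 1 rose and 4 fell (median log2 fold -0.25). The 1 that rose was Pparg, a nuclear receptor that binds oxidised fatty acids (2.06 ± 0.16, adjusted p = 7.81e-08). Fibroblast markers summed to 343 to 618 CPM in SmoM2 and 70.2 to 147 CPM in WT, with 2 of 7 tested higher and 2 lower, and dendritic markers to 16.9 to 29.6 and 5.16 to 10.8 CPM. Of 5 myeloid markers tested 3 were higher and none lower (27.6 to 59.9 CPM summed, against 14.8 to 39.2). Of the 16 on that list Prg2, Cpa3, Fcer1a, Mcpt4 and Tpsb2 had no count in either group. Ptprc, the pan-leukocyte gene CD45, was at most 0.104 CPM in SmoM2 and 0.487 CPM in WT. Of 13 columnar genes 8 were higher and 1 lower (1090 to 1280 CPM, against 908 to 1090). Their part in these results was not tested. In bulk samples, fewer cells of a type and less RNA per cell cannot be told apart.

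In the libraries labelled Sox9cKO, 1 of 5 lipoxygenases passed against SmoM2, beside 2.66% of all genes. Alox15 fell by 1.86 ± 0.44 on the log2 scale (adjusted p = 0.0429). Its levels were 0.263 to 0.710 CPM in Sox9cKO and 1.16 to 3.96 CPM in SmoM2, without overlap. Of 5 myeloid markers tested 2 fell and none rose, their list summing to 12.0 to 26.0 CPM in Sox9cKO and 27.6 to 59.9 CPM in SmoM2. Of the 16 on that list Prg2, Fcer1a, Mcpt4 and Tpsb2 had no count in either group, and Ptprc was at most 0.395 CPM in Sox9cKO and 0.104 CPM in SmoM2. Of 15 columnar genes 4 fell and none rose (557 to 1040 CPM summed, against 1090 to 1280). Their part in the Alox15 value was not tested. The call ended in 1 fit of all 51 libraries (adjusted p = 0.126), as it did when any of SmoM2 replicates 2 to 6 or Sox9cKO replicates 1, 3 or 4 was left out (highest adjusted p = 0.118). Alox12e did not pass (-0.33 ± 0.27, adjusted p = 0.533). Alox12 (-0.67 ± 0.23, adjusted p = 0.128), Alox12b (-1.09 ± 0.49, adjusted p = 0.24) and Aloxe3 (-0.38 ± 0.43, adjusted p = 0.666) did not pass either, and all 3 did without Sox9cKO replicate 2 (log2 folds -0.97, -1.92 and -1.24, adjusted p = 0.00869, 0.0104 and 0.0146). That library had Aloxe3 at 63.5 CPM, against 9.49 to 22 CPM in the other 3, and Alox12b at 121 CPM, against 14.7 to 60.8. Its 39 squamous differentiation genes also summed highest, to 17100 CPM, with 12600, 11200 and 8000 CPM in replicates 1, 3 and 4.

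Of 22 barrier lipid genes tested between Sox9cKO and SmoM2, 0 passed by edgeR (median log2 fold -0.42), 10 had an unadjusted p under 0.05, and DESeq2 called 3 of 24. Hpgds fell by 1.84 ± 0.30 (adjusted p = 0.00892) and Pla2g7, which hydrolyses oxidised phospholipids, by 1.36 ± 0.29 on the log2 scale (adjusted p = 0.0269). Pla2g7 did not pass when SmoM2 replicate 2 or 5 or Sox9cKO replicate 1, 3 or 4 was left out (highest adjusted p = 0.0676). Against WT, in a fit of all libraries where 42.4% of genes passed, 4 of 5 members did. Alox12e was higher in Sox9cKO by a log2 fold of 7.01 ± 0.48 (adjusted p = 8.05e-16). Alox12b (-1.12 ± 0.45, adjusted p = 0.0403), Aloxe3 (-0.87 ± 0.36, adjusted p = 0.045) and Alox15 (-2.30 ± 0.74, adjusted p = 0.0101) passed lower there. Fitted on these 2 groups alone Alox12b (adjusted p = 0.153) and Aloxe3 (adjusted p = 0.164) no longer passed, nor did they with the WT pairs summed (adjusted p = 0.0595 and 0.0524), and Alox15 did not without WT replicate 3 (adjusted p = 0.0683) or 5 (adjusted p = 0.0516). In the 2 groups alone Alox15 missed the low-count filter and was not tested. This comparison shares WT with the others against WT.

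Within SmoM2 oesophagus, cells with the Krt8 reporter had more of 4 of the 5 tested lipoxygenases than cells without it, where 20.0% of all genes passed. Alox12b rose by a log2 fold of 3.77 ± 0.81 (adjusted p = 0.0172), from 131, 19.9 and 15.8 CPM in K8YFP- replicates 1 to 3. Aloxe3 rose by 3.46 ± 0.58 (adjusted p = 0.00774), from 35.6, 7.06 and 10.9 CPM. Alox12 rose by 1.82 ± 0.28 (adjusted p = 0.00639), and none of the 3 genes overlapped between the gates. For these 2 groups residuals paired by replicate number, and a fit with the number as a block gave 4.46, 3.72 and 1.84 with adjusted p of 0.00143, 0.000498 and 0.000705. With any 1 library left out Alox12b was 3.30 to 5.45 (highest adjusted p = 0.0497) and Aloxe3 3.06 to 4.50 (highest adjusted p = 0.0409). The highest values, Alox12b at 5.45 (adjusted p = 0.000176) and Aloxe3 at 4.50 (adjusted p = 0.000239), came without K8YFP- replicate 1, the highest K8YFP- library for both genes; Alox15 was then 4.12 (adjusted p = 0.0211). Alox15 also passed (3.01 ± 0.78, adjusted p = 0.0326), though its ranges of 1.24 to 6.81 and 0.110 to 1.52 CPM overlapped, and it did not pass without K8YFP+ replicate 1 or 3 or K8YFP- replicate 2 or 3 (adjusted p = 0.0822, 0.11, 0.095 and 0.0917). Alox12e did not pass (-0.29 ± 0.77, adjusted p = 0.817). Krt8 checked the gate, at a log2 fold of 4.29 ± 0.87 (adjusted p = 0.0146, and 0.0633 without K8YFP- replicate 3).

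Genes of the acylceramide pathway were mostly higher in K8YFP+ too. Of 21 barrier lipid genes tested 18 rose in K8YFP+ and none fell (median log2 fold 2.31, against -0.03 over all genes). Cyp4f39, which hydroxylates ultra-long-chain fatty acids for acylceramide, rose by 1.75 ± 0.16 (adjusted p = 0.00246), the fatty acid transporter Slc27a4 by 2.37 ± 0.23 (adjusted p = 0.00246) and the elongase Elovl1 by 1.84 ± 0.19 (adjusted p = 0.0025). Of 12 genes for arachidonate release 7 rose, among them the phospholipases Pla2g2f (3.22 ± 0.35, adjusted p = 0.00262), Pla2g16 (4.35 ± 0.49, adjusted p = 0.00291) and Pla2g4e (2.34 ± 0.30, adjusted p = 0.00383). Of 35 squamous differentiation genes 26 rose, including the transcription factor Grhl1 (1.86 ± 0.16, adjusted p = 0.00246), and of 17 basal genes 14 fell, including the integrin subunit Itga6 (by 1.41 ± 0.15 on the log2 scale, adjusted p = 0.00251). Of the other branches, 3 of 15 genes rose and none fell.

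Some markers on the lists for other cells differed between the YFP gates. Of 11 fibroblast markers tested 6 rose in K8YFP+, Col1a1 by 3.6 ± 0.80 (adjusted p = 0.0196, and 0.0598 or 0.0579 without K8YFP- replicate 2 or 3), and the list summed to 331 to 716 CPM there and 385 to 407 CPM in K8YFP-. Of 4 myeloid markers 3 rose (50.6 to 126 CPM summed, against at most 24.1 CPM in K8YFP-), with 9 of 16 at 0, among them Adgre1, Siglecf and Epx. Ptprc was 0, 1.87 and 0 CPM in K8YFP+ and 0.117, 0.214 and 0.11 CPM in K8YFP-. Lyz2, also on that list, went the other way, at 0, 0 and 0.262 CPM in K8YFP+ and 0.117, 1.5 and 1.54 CPM in K8YFP-. Of 12 columnar genes 10 rose and none fell (1660 to 2240 CPM, against 587 to 1010). K8YFP+ replicate 2 stood apart in its muscle markers, at 238 CPM against 43.1 and 9.7 CPM in the other K8YFP+ libraries and 4.92 to 16.8 CPM in K8YFP-. Its endothelial markers were also high, at 123 CPM against 26.8 and 40.6 CPM and 11.7 to 20.0 CPM. Of the tested markers 0 of 3 for muscle and 1 of 2 for endothelium rose. Without that library Alox12b (3.73, adjusted p = 0.0392) and Aloxe3 (3.54, adjusted p = 0.0193) still passed. The part of these cells, and of the lower depth of K8YFP+ libraries, was not tested.

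**Figure D3:**
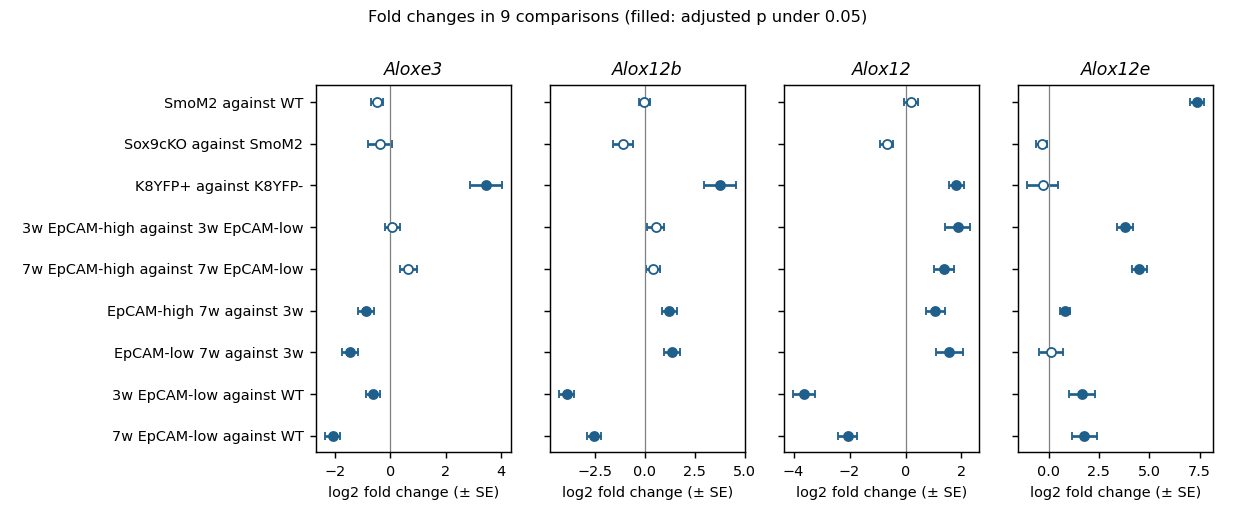
Log2 fold changes ± SE of Aloxe3, Alox12b, Alox12 and Alox12e in 9 comparisons, with filled points where the adjusted p is under 0.05; the panels have different horizontal scales. Alox12e stands at 7.37 for SmoM2 against WT and at 3.79 and 4.49 between the gates, while Aloxe3, Alox12b and Alox12 rise together for K8YFP+ against K8YFP-.

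In the time series, Alox12 and Alox12e, both 12S-lipoxygenases, were higher in the EpCAM-high than in the EpCAM-low SmoM2 cells at both times. At 3w Alox12e was 7.70, 7.06, 7.41 and 5.78 CPM in the high gate and 0.607, 0.763, 0.238 and 0.323 CPM in the low gate, a log2 fold of 3.79 ± 0.38 (adjusted p = 1.41e-07). At 7w it was 10.9, 15.6, 9.25 and 14.8 CPM against 0.268, 0.593, 0.153 and 1.22 CPM, a log2 fold of 4.49 ± 0.37 (adjusted p = 7.76e-10). The gates did not overlap at either time.

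Alox12 had log2 folds of 1.86 ± 0.46 at 3w (adjusted p = 0.00562) and 1.37 ± 0.36 at 7w (adjusted p = 0.00481), again without overlap. Of the 4 members tested 2 passed at each time, where 15.2% and 32.3% of all genes did. Gli1 differed between the gates by 2.62 ± 0.14 and 4.26 ± 0.15 (adjusted p = 3.56e-12 and 6.83e-16). Alox12b (0.55 ± 0.42, adjusted p = 0.438) and Aloxe3 (0.07 ± 0.27, adjusted p = 0.902) did not pass at 3w. Residuals of the 3w gates paired by replicate number, and with the number as a block in those 8 libraries Alox12b passed at 0.53 (adjusted p = 0.00277) while Aloxe3 did not (adjusted p = 0.536). Alox12b passed also in those libraries without the block (adjusted p = 0.0307). At 7w Alox12b was 0.41 ± 0.36 (adjusted p = 0.41) and Aloxe3 0.65 ± 0.31 (adjusted p = 0.111), and Aloxe3 passed in the 8 libraries of those gates alone (0.67, adjusted p = 0.0364). With the replicate number as a block in those 8 libraries both passed, Alox12b at 0.47 (adjusted p = 0.00141) and Aloxe3 at 0.72 (adjusted p = 0.000276). The 7w numbers fell short of the rule for pairing (lowest correlation 0.07), though each of the 4 correlated best with its own.

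The gate effect at 7w was tested against that at 3w. Of the 4 members 0 passed by edgeR, where 2.31% of all genes did, and 0 by DESeq2 or at an unadjusted p under 0.05. The interaction of Alox12e was 0.69 ± 0.66 (adjusted p = 0.733). The barrier lipid genes did not split by gate as a group, with 1 of 23 higher and 1 lower at 3w and 4 higher and 3 lower at 7w. Degs2 was higher in the high gate at 3w (1.87 ± 0.27, adjusted p = 1.91e-05) and 7w (3.53 ± 0.30, adjusted p = 1.75e-09). The 2 cyclooxygenases went opposite ways: Ptgs1 was lower in the high gate (-1.91 ± 0.15 and -3.22 ± 0.16, adjusted p = 2.04e-09 and 1.04e-13) and Ptgs2 higher (1.07 ± 0.13 and 2.05 ± 0.14, adjusted p = 3.46e-06 and 3.48e-11, the first 0.0523 in 1 fit of all 51 libraries). Pla2g4e, a cytosolic phospholipase gene, was lower in the high gate (-1.15 ± 0.22 and -2.36 ± 0.23, adjusted p = 0.000676 and 1.95e-08).

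Between 3w and 7w the barrier pair moved apart. In EpCAM-high cells Alox12b rose by a log2 fold of 1.23 ± 0.37 (adjusted p = 0.0104), from 7.55 to 15.2 CPM at 3w to 20.4 to 39.2 CPM at 7w. Aloxe3 fell by 0.87 ± 0.28 on the log2 scale (adjusted p = 0.0152), from 37.3, 43.8, 25.2 and 33.1 CPM to 24.5, 14.1, 20.7 and 19.7 CPM. Neither gene's ranges overlapped. In EpCAM-low cells Alox12b rose by 1.37 ± 0.41 (adjusted p = 0.0102) and Aloxe3 fell by 1.45 ± 0.30 on the log2 scale (adjusted p = 0.000534), from 33.2, 36.2, 27.0 and 31.6 CPM to 15.5, 5.53, 10.4 and 16.6 CPM.

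Alox12 rose at 7w in both gates (1.06 ± 0.34 and 1.56 ± 0.48, adjusted p = 0.0157 and 0.0123). Alox12e rose in EpCAM-high cells (0.80 ± 0.25, adjusted p = 0.0124) and was 0.11 ± 0.59 in EpCAM-low cells (adjusted p = 0.905). With the EpCAM-low groups fitted alone Alox12e missed the low-count filter and was not tested, so its EpCAM-low value rests on the wider fit. In all, 4 of 4 members passed in the high gate and 3 of 4 in the low gate, where 41.4% and 37.9% of all genes did. In 1 fit of all 51 libraries Alox12b (1.26, adjusted p = 0.0785), Alox12e (0.82, adjusted p = 0.0797) and Aloxe3 (-0.85, adjusted p = 0.112) of the high gate and Alox12b of the low gate (1.38, adjusted p = 0.0747) no longer passed. Without 3w EpCAM-high replicate 4 or 7w EpCAM-high replicate 1 Alox12 missed (adjusted p = 0.0537 and 0.0512), without replicate 2 of either Aloxe3 did (adjusted p = 0.0559 and 0.0609), and without 7w EpCAM-low replicate 1 Alox12 of the low gate did (adjusted p = 0.0598). The leading number in the raw library names is 11 at 3w and 12 at 7w, so that whatever it stands for cannot be told apart from time.

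The barrier lipid genes, which supply the substrate, were counted beside the 41.4% and 37.9% of all genes that passed in the high and low gates. Of 23 tested 13 rose and 3 fell at 7w in the high gate (median log2 fold 0.66, against 0.02 over all genes), and 13 rose and 2 fell in the low gate (0.73, against 0.02). The elongase Elovl4 rose by 2.20 ± 0.36 in the high gate (adjusted p = 4.76e-05). Cyp4f39 rose by 1.29 ± 0.21 and 1.71 ± 0.21 (adjusted p = 4.76e-05 and 1.42e-06), and the ceramide synthase Cers3 by 0.98 ± 0.17 and 1.04 ± 0.17 (adjusted p = 8.72e-05 and 5.66e-05). Of 34 squamous differentiation genes 19 rose in the high gate and none fell, and 21 rose and 1 fell in the low gate. The 4 time groups were compared in a fit that also held WT, and the comparisons share those groups.

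**Figure D4:**
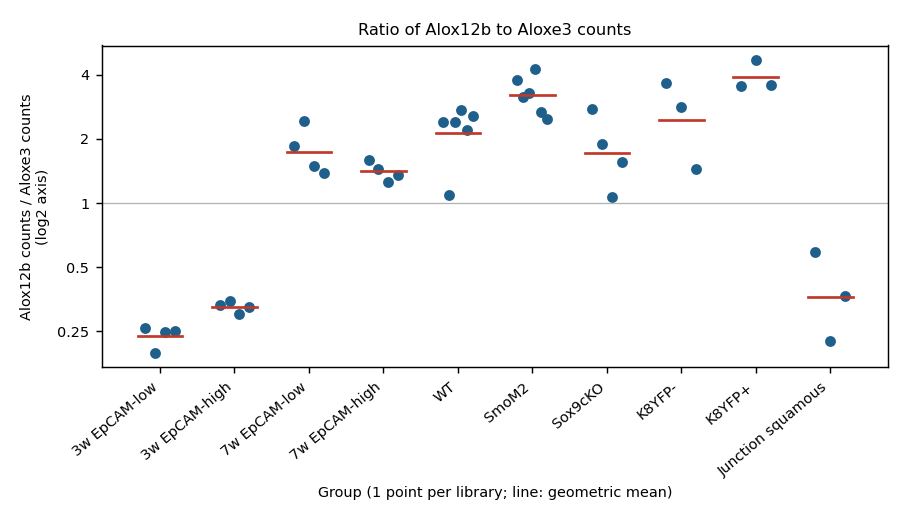
Ratio of Alox12b to Aloxe3 counts (log2 axis) in the 10 groups of squamous or SmoM2 cells, 1 point per library, with the geometric mean as a red line. The 3w libraries lie between 0.198 and 0.346 and the 7w libraries between 1.26 and 2.43, and Junction squamous is the other group below 1.

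The ratio of Alox12b to Aloxe3 counts, which needs no scaling between libraries, was chosen after the values were seen, so it is described without a test. Its geometric mean was 0.325 in 3w EpCAM-high and 1.41 in 7w EpCAM-high, a log2 difference of 2.11. In the low gate it was 0.238 and 1.74, a difference of 2.87. The 3w and 7w ranges overlapped in neither gate, and with any 1 library left out the differences were between 2.05 and 2.17 in the high gate and between 2.72 and 2.99 in the low gate. WT stood at 2.14, SmoM2 at 3.22, K8YFP+ at 3.90, K8YFP- at 2.47 and Sox9cKO at 1.72, with the ranges of SmoM2 overlapping those of WT and Sox9cKO. Junction squamous had 0.364 (0.224 to 0.587), below every WT library (1.09 to 2.72).

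Cells of the EpCAM-low gate of Krt5-SmoM2 mice carry the same gate label as WT and differ from it by genotype. The leading number of the raw library names and the week label go with the group too, and cannot be told apart from genotype. At 3w Alox12b fell by 3.92 ± 0.38 (adjusted p = 2.36e-08) and Alox12 by 3.63 ± 0.39 on the log2 scale (adjusted p = 1.22e-07), with no overlap for either gene. At 7w the falls were 2.55 ± 0.33 (adjusted p = 3.04e-06) and 2.07 ± 0.33 (adjusted p = 3.18e-05). Alox12b (13.4 to 28.8 CPM at 7w) did not overlap WT, while Alox12 (2.60 to 5.76 CPM) overlapped WT replicate 2. Aloxe3 was -0.63 ± 0.25 at 3w (adjusted p = 0.0389) and -2.08 ± 0.28 at 7w (adjusted p = 3.92e-06). The first missed the threshold in several alternatives, for example in the 2 groups alone (adjusted p = 0.0622) and without WT replicate 1 (-0.38, adjusted p = 0.113).

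Alox12e was 1.67 ± 0.64 (adjusted p = 0.035) and 1.78 ± 0.64 (adjusted p = 0.0301) against WT, each on 13 counts over 4 libraries against 7 over 6. It did not pass in 1 fit of all 51 libraries (adjusted p = 0.131 and 0.12) or without WT replicate 2 (adjusted p = 0.0594 and 0.0514) or 6 (adjusted p = 0.0699 and 0.0581). Without 7w EpCAM-low replicate 4 the second was 1.05 (adjusted p = 0.279). In the compared groups alone Alox12e missed the low-count filter at both times and was not tested. There 2 of 3 tested members passed at 3w, beside 6365 of 16103 genes, and 3 of 3 at 7w, beside 4914 of 15804. In the fit with the EpCAM-high groups 4 of 4 members passed at each time, 1 higher (Alox12e) and 3 lower. Of all genes 47.4% (3w) and 40.4% (7w) passed in that fit. Barrier lipid genes fell in 18 of 23 at 3w (2 rose) and 20 of 23 at 7w (1 rose). Of 34 squamous differentiation genes 31 fell at 3w and 18 at 7w, with 1 rising at each time. At 3w Cyp4f39 fell by 2.62 ± 0.20 (adjusted p = 9.72e-10) and Cers3 by 1.72 ± 0.16 (adjusted p = 2.16e-08) on the log2 scale. The phospholipase Pla2g2f fell by 4.01 ± 0.44 on that scale (adjusted p = 1.6e-07).

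At the squamocolumnar junction the members divided by side. All 5 tested passed, where 74.4% of genes did, with 3 lower and 2 higher on the columnar side. Aloxe3 had 2 counts over 4 columnar libraries and 1034 over 3 squamous ones, a ratio of CPM of 577 (95% exact interval 159 to 4770, counting error only). Alox12b fell by 6.90 ± 0.50 (adjusted p = 2e-07) and Alox12 by 2.98 ± 0.35 on the log2 scale (adjusted p = 1.36e-05). Alox12b had 4 counts over the columnar libraries and 388 over the squamous ones. Alox15 rose by 2.88 ± 0.39 (adjusted p = 3.82e-05), from 2.35, 0.615 and 2.00 CPM. Without Junction columnar replicate 4 the folds of Alox12b and Alox12 were -8.18 (adjusted p = 4.06e-07) and -3.58 (adjusted p = 5.1e-07). Alox12e had 45 counts over the columnar libraries and 1 over the squamous ones, a ratio of 40.4 (95% exact interval 6.88 to 1630).

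Of 24 barrier lipid genes 18 were lower on the columnar side and 5 higher, Tgm1, the cornified-envelope transglutaminase, by -12.08 ± 0.22 (adjusted p = 2.71e-11). Of 21 genes of the other eicosanoid branches 12 were higher, and the 5-lipoxygenase gene Alox5 reached 546, 599, 239 and 320 CPM on the columnar side and 0 to 0.157 CPM on the squamous side, with its helper Alox5ap higher by 6.65 ± 0.40 (adjusted p = 4.77e-08). Of 4 myeloid markers tested 2 were higher and 1 lower, and the 16 on the list summed to 189 to 344 CPM there against 19.2 to 28.1, with Fcgr3 and Prg2 at 0, and dendritic markers to 97.0 to 497 CPM against 15.4 to 17.4. Ptprc was 54.4 to 114 CPM on the columnar side and at most 0.154 CPM on the squamous side. Siglecf, like Ptprc on the myeloid list, was 194, 219, 102 and 153 CPM on the columnar side and 0 on the squamous side. Epx and Cpa3 of that list were at most 0.181 and 2.04 CPM on the columnar side. Lyz2 was 0.307, 0.51, 25.4 and 8.86 CPM there. Cd74, a gene of MHC class II presentation, was 68.2 to 331 CPM there, 1.69 to 2.35 CPM in Junction squamous and 531 and 626 CPM in Gut. Which cells of the Junction columnar sort, EpCAM-high with YFP, hold the RNA of these genes was not tested. The part of such cells in the Alox15 and Alox12e values was not tested either.

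Embryonic oesophagus and WT were compared in the fit of all libraries. All 5 tested members passed, where 64.0% of genes did, 3 higher and 2 lower. Alox12b, with 5822 counts over WT and none over Embryo, was at least 792-fold lower in Embryo (against 3 counts over the group). Aloxe3 fell by 4.91 ± 0.64 on the log2 scale (adjusted p = 8.61e-09), Alox12e rose by 3.90 ± 0.64 (adjusted p = 1.27e-06), Alox15 by 2.11 ± 0.61 (adjusted p = 0.00244) and Alox12 by 0.95 ± 0.33 (adjusted p = 0.0117). In the 8 libraries of the 2 groups alone Alox12 (adjusted p = 0.0751) and Alox15 (adjusted p = 0.079) did not pass, and without Embryo replicate 2 they were 0.36 (adjusted p = 0.51) and 1.46 (adjusted p = 0.117). Of 24 barrier lipid genes 20 were lower in Embryo and 3 higher, and of 37 squamous differentiation genes 32 were lower. Abca12 fell by 9.98 ± 0.64 (adjusted p = 1.45e-17) and Degs2 rose by 4.99 ± 0.30 on the log2 scale (adjusted p = 1.52e-18). Without WT replicate 3 Alox15 was 2.77 (adjusted p = 0.000136). Of 12 fibroblast markers tested 8 were higher and 1 lower (329 to 518 CPM summed, against 70.2 to 147). Of 7 muscle markers 5 were higher (63.8 to 68.1 CPM, against 6.09 to 14.1). Of 24 columnar genes 15 were higher and 3 lower (1500 to 2310 CPM, against 908 to 1090), and of 4 platelet markers 2 were higher and 1 lower. Their part in these results was not tested.

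The squamous side of the junction and WT oesophagus differed in 1 of 5 members, where 30.5% of genes passed. Place, EpCAM gate and mouse line change together between these groups and cannot be told apart. Alox12b fell by 2.47 ± 0.55 on the log2 scale (adjusted p = 0.000565), to 27.4, 13.7 and 17.7 CPM, all below WT. Aloxe3 (0.14 ± 0.38, adjusted p = 0.822) and Alox12 (0.41 ± 0.31, adjusted p = 0.333) did not pass. Alox12e, with 7 counts over WT and 1 over Junction squamous, missed the low-count filter in the compared groups alone. Of 24 barrier lipid genes 3 were higher and 4 lower, the fatty acid hydroxylase Fa2h by 4.33 ± 0.60 (adjusted p = 2.03e-07), and Krt10, a keratin of cornifying epithelium, was higher by 6.76 ± 0.31 (adjusted p = 4.38e-21).

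The K8YFP+ cells of SmoM2 oesophagus and the Krt8-positive columnar cells of the normal junction differed in 3 of 5 members, all higher in the former, where 60.8% of genes passed. Alox12 was higher by 4.82 ± 0.39 (adjusted p = 2.61e-14) and Alox12b by 11.96 ± 0.94 (adjusted p = 2.12e-14). Without Junction columnar replicate 4 they were 5.43 and 13.29 (adjusted p = 3.2e-14 and 1.65e-12). Alox12b had 7529 counts over K8YFP+ and 4 over Junction columnar, 3 of these in replicate 4, so the size of its fold rests on few counts. Aloxe3 had 2059 counts over 3 libraries against 2 over 4, a ratio of CPM of 1880 (95% exact interval 521 to 15600). Alox15 did not pass (-1.28 ± 0.68, adjusted p = 0.0999), and passed in the 2 groups alone (-1.15, adjusted p = 0.0263). Of 24 barrier lipid genes 20 were higher in K8YFP+ and 4 lower.

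The genes whose 14 group means of log2(CPM + 1) correlated most with each member were taken from 12971 genes as a description. For Alox12b they were the cornified-envelope gene Cnfn (r 0.99), the kallikrein Klk13 and the desmosomal cadherin Dsc1 (both 0.98). For Aloxe3 they were the palmitoyltransferase Zdhhc5 (0.97), Ankrd22 (0.96) and Ecm1 (0.95), for Alox12 Lgi2 (0.91), Elf5 and Clasp1 (both 0.90), for Alox12e the kinase Prkd2, the proton pump subunit Atp6v1b1 (both 0.90) and Palm2 (0.89), and for Alox15 Slc25a23, Apol7d and Dnah9 (all 0.94). Ranked by Spearman rho instead, 1 of the 3 genes was the same for Alox12 (Lgi2) and for Alox12e (Prkd2), and none for the other 3 members.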

How the data were processed

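Total RNA of sorted mouse cells was made into 51 NuGEN Ovation Solo libraries and sequenced on a NovaSeq 6000, per the labels' protocols. The deposited values are raw counts per Ensembl gene, made by the authors; the submitters' processing notes name HTSeq, STAR (version 2.5.3a), edgeR, GRCm38 and mm10. Whether strand was counted, and with which annotation release, is not given in the sources used here. Of 52636 identifiers, 52489 were found in GENCODE M21, which gave positions and exon lengths. CPM use library totals (1.61 M to 12.26 M), while fold changes use TMM scaling. Tests used edgeR 4.0.16 under R 4.3.3 (filterByExpr, minimum count 10, minimum total 15; SE is the absolute log2 fold over the root of F) in 15 comparisons: 4 fitted on their own groups, 7 in 1 fit of the time series and WT, and 4 in 1 fit of all 51 libraries. Residuals of equal replicate numbers correlated above 0.1 in every pair between the YFP gates (0.29 to 0.41) and between the 3w gates (0.16 to 0.29), which was taken as pairing. The tests were checked on simulated data. Alternatives were RLE scaling, no filter, DESeq2 1.42.0, other libraries in the fit, a replicate block, summed WT pairs and leaving out each library. The 6 members and the gene lists were chosen with earlier results of these data known; from each list up to 3 genes that passed with the smallest p could be named, beside Gli1, Sox9 and Krt8 as checks of labels. Alox5, Alox12b to Aloxe3 ratios and marker genes given with levels were chosen after their values were seen. Intervals and floors (3 counts) cover counting error only.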

Additional observations from a re-analysis of the deposited data

Results flagged for a closer look

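Libraries that stood apart from the rest of their group on 1 member were sought in 46 pairs of gene and group, in groups of 4 to 10 libraries, by the gap to the nearest library over the whole range (Dixon's 95% limit); chance gives about 1 in 20. It found 6. Alox12 was 3.61 CPM in WT replicate 2, against 16.8 to 20.4 CPM in the other 5 libraries. Aloxe3 was 82.3 CPM in WT replicate 1, against 28.4 to 46.4 CPM. Alox15 was 3.96 CPM in SmoM2 replicate 5, against 1.16 to 1.79 CPM. The other 3 rest on at most a few counts: Alox8 at 0.118 CPM in WT replicate 3 and 0.131 CPM in 3w EpCAM-high replicate 1, and Alox15 at 0.35 CPM in 7w EpCAM-low replicate 4, with 0 in the rest of each group. The squamous differentiation genes summed to 15300 CPM in WT replicate 2 and 33500 CPM in WT replicate 1, the lowest and highest of WT, whose other 4 libraries had 20100 to 21100 CPM.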

How the results depend on the processing

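Of the single-gene folds, 842 values under other settings kept their call and direction, 26 lost the call, 8 gained it and 2 turned sign; with 1 library left out these were 1188, 53, 7 and 20. The number of lipoxygenases passing for SmoM2 against WT was 2 in place of 1 with no filter on low counts (1 to 2 with 1 library left out). For Sox9cKO against SmoM2 it was 0 in place of 1 in 1 fit of all 51 libraries and with the replicate block (0 to 4 with 1 library left out). The block was fitted in the compared groups alone. For the 7w gates the number was 2, 3 in those 8 libraries alone and 4 there with the replicate block. The 7w replicate numbers fell short of the rule for pairing (correlations 0.07 to 0.21), though each of the 4 numbers correlated best with its own. For EpCAM-high 7w against 3w it was 1 in place of 4 in the fit of all libraries. For 3w EpCAM-low against WT it was 2 in place of 4 with the block and in the compared groups alone (2 to 4 with 1 left out), for Embryo against WT 3 in place of 5 in those groups alone (3 to 5), and for Junction squamous against WT 2 in place of 1 with no filter. Alox12e was not tested in the 3w EpCAM-low and WT groups alone. For Sox9cKO against WT the number was 2 in place of 4 by DESeq2 and with WT pairs summed, and 1 with the block and in the groups alone (1 to 5 with 1 left out). Alox15 was not tested in those groups alone, with or without the block. With the block, the SmoM2 against WT folds of Alox12b and Alox15 turned to 0.13 and 0.23. Genes called between the 3w gates were 2622, 4474 in those 8 libraries alone and 5969 there with the block; between the YFP gates they were 3116 and, with the block, 4782, with no member's call changed. The cause of these shifts was not tested.

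Signs that turned with 1 library left out all belonged to folds that did not pass. The ranges were, for SmoM2 against WT, -0.01 to 0.27 (Alox12), -0.21 to 0.24 (Alox12b) and -0.78 to 0.19 (Alox15). Alox12e ran from -0.71 to 0.51 between the YFP gates, from -0.62 to 0.42 for EpCAM-low 7w against 3w and from -0.1 to 0.56 for K8YFP+ against Junction columnar. Aloxe3 ran from -0.06 to 0.2 between the 3w gates and from -0.0 to 0.37 for Junction squamous against WT, where Alox15 ran from -0.89 to 0.09. The interaction of Alox12b ran from -0.33 to 0.09. Scaled by TMM, the Alox15 mean of Embryo was 11.4 in place of 15.3 CPM, and Junction columnar became its highest group. Depth limits Alox8 and the low groups of Alox12e and Alox15, which rest on a few counts.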
